A study of Homo sapiens with 6 samples.

Results

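The ERK pathway feedback genes are a set of 10 transcripts that are known to follow the activity of the kinase ERK: DUSP4, DUSP5, DUSP6, SPRY2, SPRY4, SPRED1, SPRED2, ETV4, ETV5 and PHLDA1. They were picked by gene symbol from the 62260 gene rows of each library, and all 10 were among the 14166 genes with enough reads to be tested. The libraries came from TYK-nu, an ovarian cancer cell line, in 2 genotypes: wild type (WT, 3 libraries) and ZNFX1 knockout (KO, 3 libraries). ZNFX1 is an RNA helicase with a zinc finger domain that takes part in antiviral defence. Neither genotype was given a drug, both were grown in the same medium, and the labels place all 6 libraries in batch 1. The comparison asks how RNA levels differ between WT and ZNFX1 KO cells. The labels name neither the way the knockout was made nor the number of clones, so loss of ZNFX1 and other differences between the WT and KO cells cannot be told apart.

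In the ERK pathway, growth factors bind receptor tyrosine kinases, RAS is loaded with GTP by way of adaptors, and RAF, MEK and ERK are activated in turn. Active ERK enters the nucleus and switches on genes, among them inhibitors of the same pathway, so the pathway limits itself. DUSP4, DUSP5 and DUSP6 are phosphatases that remove the activating phosphates from MAP kinases; DUSP4 and DUSP5 act in the nucleus, DUSP6 in the cytoplasm. SPRY2 and SPRY4 are Sprouty proteins, which act between receptors and RAF, and SPRED1 and SPRED2 bring neurofibromin to the membrane to switch RAS off. ETV4 and ETV5 are ETS transcription factors of the PEA3 group, which carry the ERK signal into gene expression, and PHLDA1 is a small protein with a pleckstrin homology-like domain whose transcript follows ERK activity. Many tumours, ovarian cancers included, carry changes that activate this pathway, and the transcripts of these genes are often read together as a measure of its output.

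Promoter sequences are shown because ETS factors activate many genes of this set and the repressor Capicua, which ERK inactivates, holds ETV4 and ETV5 silent. The RefSeq table (GRCh38.p14) held start sites for 6 of the 10 genes, DUSP6, SPRY2, SPRY4, SPRED1, SPRED2 and PHLDA1, in 9 of its 35116 windows. In the 250 bases before each start, the ETS core CCGGAA stood on either strand in 14.5% of all windows and in 2 of the 9, those of PHLDA1 and SPRY2. The Capicua octamer (TGAATGAA, TGAATGGA, TCAATGAA or TCAATGGA) stood in 3.18% of all windows and in 1 of the 9, that of DUSP6. The cAMP response element TGACGTCA (1.65% of all windows) and the AP-1 site TGACTCA (4.20%) stood in 0 of the 9. The AP-1 site and the cAMP response element differ in length and do not contain each other, and the other motifs share no full match with them. A match is a description of letters, not a measured binding site. The windows of 30 bases around the matches are given 5′ to 3′ on the gene's own strand, with the match in capitals.
PHLDA1, chr12:76031848-76031877, minus strand, match at bases 89 to 84 before the start: gaggagaggagtTTCCGGggctcgggtccg
SPRY2, chr13:80341251-80341280, minus strand, match at bases 142 to 137 before the start: tccctgcctcctCCGGAAaggcgagggcgc
DUSP6, chr12:89352507-89352536, minus strand, match at bases 24 to 17 before the start: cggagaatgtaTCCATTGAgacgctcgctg

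SPRY2 had the largest fitted difference among the more abundant genes of the set, so its 250 upstream bases (chr13:80341127-80341376, minus strand, 70.4% G and C) are given whole, with the ETS core in capitals.
SPRY2 upstream: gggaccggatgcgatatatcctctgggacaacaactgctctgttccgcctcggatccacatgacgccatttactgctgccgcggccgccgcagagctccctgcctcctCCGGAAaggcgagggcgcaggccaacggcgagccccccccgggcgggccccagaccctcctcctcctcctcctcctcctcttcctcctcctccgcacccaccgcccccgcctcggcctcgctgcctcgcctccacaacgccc

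The libraries held between 21413002 and 23494771 estimated fragments, of which between 19115530 and 21036063 were in gene rows. ZNFX1 itself stood at 130, 208 and 109 counts-per-million (CPM) in WT 1 to 3 and at 103, 70.5 and 75.2 CPM in KO 1 to 3. Every KO library was below every WT library, and the log2 fold change was -0.85 (SE 0.27; adjusted p = 0.218 in edgeR). With 3 libraries a group, the two-sided exact permutation p cannot go below 0.1, which is the value it took. Without WT 3, the WT library nearest to KO, the ZNFX1 difference passed the test (-1.01, adjusted p = 0.0468 in edgeR). In 17 of 18 alternative settings it did not pass, and without WT 2 it was -0.53 (adjusted p = 0.5065 in edgeR). ZNFX1 protein was not analysed here. WT 2 stood apart from the other libraries: 10 interferon-stimulated genes had a median log2-CPM 1.67 above their own means there, and 10 cell division genes a median of -1.20, against -0.69 to 0.13 and -0.21 to 0.38 in the other 5 libraries. Of 8 ovarian and epithelial markers, WT1, KRT8 and KRT18 had a TPM (transcripts-per-million, a length-scaled level) above 1 in every library, KRT19 passed 1 TPM in WT 3 alone, and PAX8, MUC16, EPCAM and KRT7 stayed under 1 TPM. The summed level of these 8 markers was 53.1 to 79.0 TPM in WT and 76.4 to 96.7 TPM in KO, most of it KRT18 (mean 53.5 TPM in WT and 78.0 TPM in KO). KRT8, KRT19 and EPCAM had lower means in KO, with EPCAM at 31, 34 and 5 reads in WT and 0 in each KO library. Of 6 mesenchymal markers VIM alone was above 1 TPM in every library. The endothelial markers CDH5, PECAM1 and KDR were also above 1 TPM in every library, and the 4 endothelial markers, VWF included, summed to 95.1 to 183 TPM in WT and 114 to 161 TPM in KO, while 0 of 5 leukocyte markers were. The leukocyte markers summed to 0.192 to 1.69 TPM in WT and 1.46 to 4.56 TPM in KO, nearly all of it LYZ, which encodes lysozyme (0.192, 0.458 and 1.60 TPM in WT 1 to 3 and 4.49, 1.61 and 1.43 TPM in KO 1 to 3), with PTPRC at 0 reads. The part of these markers in the results was not tested. The labels call the libraries biological replicates without saying whether they came from separate cultures, so each p-value reflects only how these libraries vary.

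Across the set, 0 of 10 genes passed the test between KO and WT (edgeR quasi-likelihood test, Benjamini-Hochberg adjusted p under 0.05 over all 14166 genes), beside 0.727% of all genes tested (103 genes, 38 higher and 65 lower in KO). The DESeq2 Wald test called 1 of the 10, DUSP4, and 579 genes in all. At an unadjusted p under 0.05 the count was 1 of 10 in edgeR, again DUSP4, and 2141 of the 14166 genes tested. The fitted log2 fold change was negative for 8 genes and positive for ETV4 and ETV5, where 51.2% of all genes tested were negative. The median over the 10 genes was -0.19, and over all genes -0.01. The CPM of the 2 groups did not overlap for 2 of the 10 genes (20.0%), beside 20.2% of all genes tested; these were DUSP4, lower in every KO library, and ETV5, higher in every KO library. Fewer cells with a transcript and less transcript per cell cannot be told apart in such bulk RNA.

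**Figure D1:**
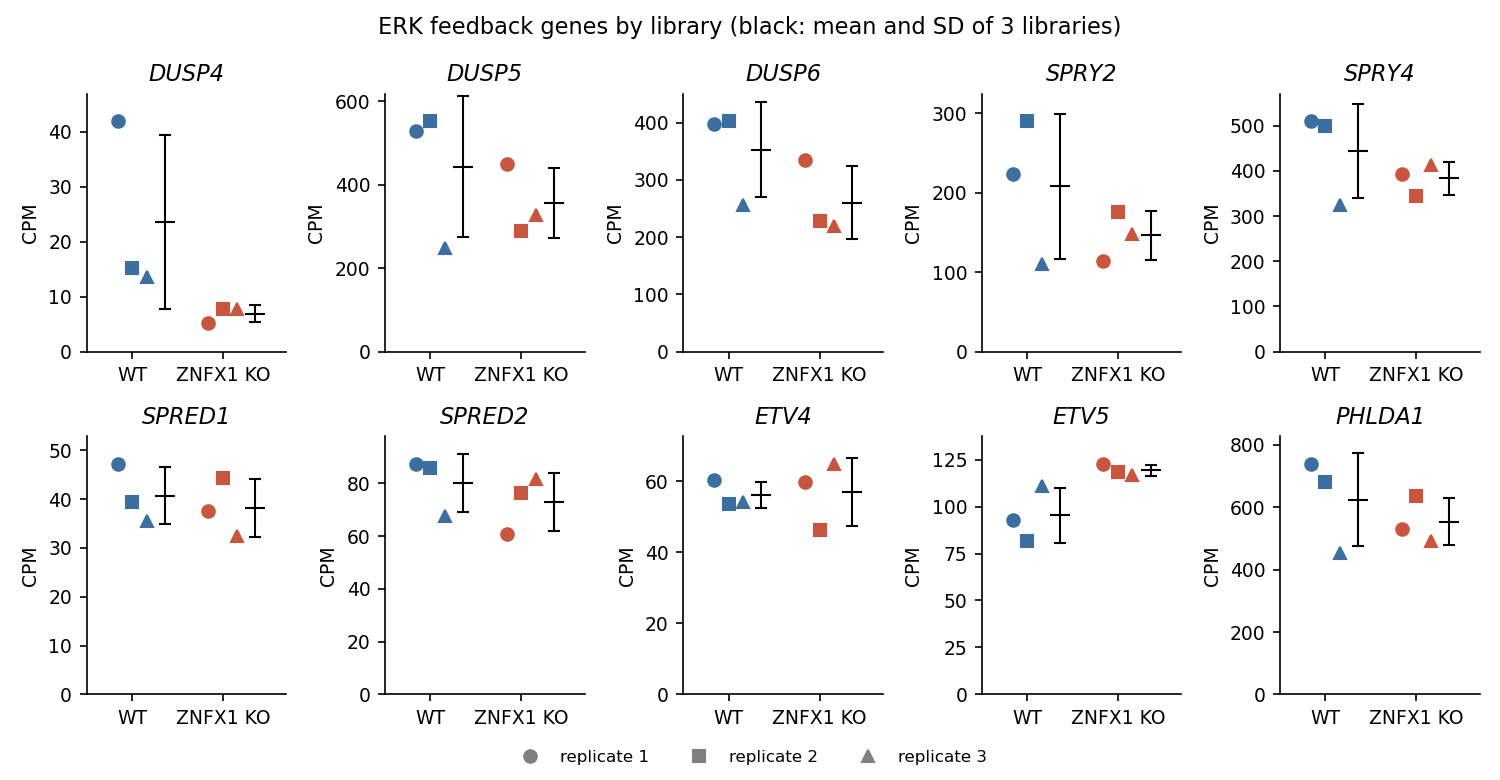
Counts-per-million (CPM, vertical axis starting at 0) of the 10 ERK feedback genes in 3 WT (blue) and 3 ZNFX1 KO (red) libraries, with the marker shape giving the replicate number and black bars the mean and SD of 3 libraries. DUSP4 and ETV5 are the genes whose groups do not overlap, and WT 3 (blue triangle) is the lowest WT library for 8 of the 10 genes.

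DUSP4, a nuclear phosphatase of ERK and of the stress kinases JNK and p38, had the largest difference of the set (ENSG00000120875.9, chr8:29333064-29350668, minus strand; gene positions are those of GENCODE 29 on GRCh38). Its level was 41.9, 15.3 and 13.6 CPM in WT 1 to 3 and 5.19, 7.81 and 7.77 CPM in KO 1 to 3. WT 1 stood far above all others, and the highest KO library was still below the lowest WT library. Mean levels were 23.6 ± 15.9 CPM in WT and 6.93 ± 1.5 CPM in KO (SD, n = 3 each), so KO stood at 29.3% of WT. The log2 fold change was -1.77 (SE 0.44, 95% interval -2.76 to -0.78), with an unadjusted edgeR p of 0.00315 and an adjusted p of 0.130. Of all genes tested, 1.26% had a lower fold change.

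The DUSP4 values rested on 821, 302 and 299 reads in WT and 107, 155 and 149 reads in KO. DUSP4 passed the threshold in 3 of 18 alternative settings: with no filter on low counts (edgeR adjusted p = 0.00356), in the DESeq2 Wald test (adjusted p = 0.00252) and without WT 3 (-2.03; adjusted p = 0.0283 in edgeR). Without WT 1, its highest library, the difference was -1.06 (edgeR adjusted p = 0.276). The direction was negative in all 18 settings, between -2.03 and -0.93.

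DUSP5, a nuclear phosphatase specific for ERK, was measured at 528, 552 and 249 CPM in WT and 450.0, 288 and 328 CPM in KO (ENSG00000138166.6, chr10:110497838-110511544, plus strand). WT 3 was the lowest of all 6 libraries and KO 1 lay near the other WT libraries, so the groups overlapped. The WT libraries alone spanned a 2.22-fold range. Mean levels were 443 ± 169 CPM in WT and 356 ± 84.1 CPM in KO (SD, n = 3 each), a log2 fold change of -0.32 (SE 0.31, 95% interval -1.03 to 0.40; adjusted p = 0.636 in edgeR).

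DUSP6, the cytoplasmic ERK phosphatase and one of the most used readouts of ERK output, was at 398.0, 402 and 256 CPM in the WT libraries and 334, 228 and 219 CPM in KO (ENSG00000139318.8, chr12:89347232-89353271, minus strand). WT 1 and WT 2 were the highest, and WT 3 lay between KO 1 and the other KO libraries. The means of 352 ± 83.0 CPM in WT and 260.3 ± 63.8 CPM in KO (SD, n = 3 each) gave a log2 fold change of -0.44 (SE 0.25, 95% interval -0.998 to 0.125; adjusted p = 0.425 in edgeR). In all, 0 of the 3 phosphatases passed the test, and their median log2 fold change was -0.44. An antisense gene, AC024909.2, overlaps DUSP6 with 15 to 38 reads per library.

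SPRY2, a Sprouty inhibitor of receptor signalling whose promoter window holds the ETS core shown above, was at 224, 290.2 and 110 CPM in the WT libraries and 115, 176 and 148 CPM in KO (ENSG00000136158.12, chr13:80335976-80340951, minus strand). The lowest and the highest of all 6 libraries were both WT, WT 3 and WT 2, and the WT range was 2.64-fold. Mean levels were 208 ± 91.2 CPM in WT and 146 ± 30.9 CPM in KO (SD, n = 3 each). The log2 fold change of -0.51 (SE 0.33, 95% interval -1.27 to 0.25) had an edgeR adjusted p of 0.487. It moved to -0.19 without WT 2 (adjusted p = 0.920) and to -0.79 without WT 3 (adjusted p = 0.0651), so its size depended on these 2 libraries.

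SPRY4, the other Sprouty gene of the set, was at 510.1, 499 and 325 CPM in the WT libraries and 394, 344 and 414 CPM in KO (ENSG00000187678.10, chr5:142310427-142326455, minus strand). WT 3 was again the lowest of all libraries, and the other WT libraries were above every KO library. The means of 445 ± 104 CPM and 384 ± 36.2 CPM (SD, n = 3 each) gave a log2 fold change of -0.21 (SE 0.21, 95% interval -0.70 to 0.27; adjusted p = 0.644 in edgeR). Part of the SPRY4 reads was deposited under separate transcript rows: 694, 991 and 929 reads in WT and 988, 1353 and 964 reads in KO, which is 6.50% to 16.6% of a library's SPRY4 reads. With these rows joined to the gene, its log2 fold change was -0.14 (edgeR adjusted p = 0.744). The antisense gene SPRY4-AS1 had 16 to 27 reads per library.

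SPRED1, which recruits neurofibromin to RAS, was at 47.2, 39.5 and 35.6 CPM in WT and 37.5, 44.4 and 32.5 CPM in KO (ENSG00000166068.13, chr15:38252326-38357249, plus strand). WT and KO libraries were interleaved. The means were 40.7 ± 5.92 and 38.1 ± 5.96 CPM (SD, n = 3 each), with a log2 fold change of -0.10 (SE 0.19, 95% interval -0.53 to 0.34; adjusted p = 0.831 in edgeR). The sign turned, to 0.03, without WT 1 and without KO 3.

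SPRED2, its close relative, was at 87.3, 85.9 and 67.6 CPM in the WT libraries and 60.7, 76.4 and 81.7 CPM in KO (ENSG00000198369.10, chr2:65310851-65432637, minus strand). KO 1 was the lowest library, and WT 3 lay between KO 1 and KO 2. The means of 80.3 ± 11.0 and 72.9 ± 10.9 CPM (SD, n = 3 each) gave a log2 fold change of -0.14 (95% interval -0.56 to 0.28; adjusted p = 0.737 in edgeR). Of the 4 Sprouty and SPRED genes 0 passed the test, all 4 fitted values were negative, and their median was -0.18.

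ETV4, an ETS factor that ERK output induces by relieving Capicua, was at 60.3, 53.6 and 54.3 CPM in the WT libraries and 59.8, 46.4 and 64.9 CPM in KO (ENSG00000175832.13, chr17:43527844-43579620, minus strand). The KO libraries reached both lower and higher than the WT libraries. The means were 56.1 ± 3.66 and 57.0 ± 9.56 CPM (SD, n = 3 each), and the log2 fold change was 0.02 (SE 0.18, 95% interval -0.38 to 0.43; adjusted p = 0.959 in edgeR). Its sign turned when libraries were scaled by their totals (-0.04) and when WT 2, KO 1 or KO 3 was left out. ETV4 overlaps DHX8, a protein-coding gene on the opposite strand with 1259 to 1797 reads per library, and whether the authors' counting used strand is not given in the sources used here.

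ETV5, its PEA3 group relative, was the only gene of the set with every KO library above every WT library, at 93.0, 81.6 and 111 CPM in WT and 123, 118 and 117 CPM in KO (ENSG00000244405.8, chr3:186046308-186110318, minus strand). The KO libraries lay close together, and WT 3 stood nearest to them. Mean levels were 95.2 ± 14.9 CPM in WT and 119 ± 3.05 CPM in KO (SD, n = 3 each). The log2 fold change was 0.32 (SE 0.17, 95% interval -0.06 to 0.71; adjusted p = 0.396 in edgeR), and it stayed between 0.23 and 0.47 in 18 alternative settings without passing the test. In TPM, which divides by effective length and is not TMM-scaled, the groups overlapped: WT 3 stood at 21.5 TPM and KO 1 to 3 at 18.9, 22.0 and 19.1 TPM. With effective length as an offset in edgeR, the log2 fold change stayed at 0.32. Whether the TPM overlap came from length or from library scale was not tested.

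PHLDA1, whose promoter window also holds an ETS core, was at 738, 681 and 454 CPM in WT and 532, 637 and 491 CPM in KO (ENSG00000139289.15, chr12:76025447-76033932, minus strand). WT 3 was the lowest of all 6 libraries. The means of 624 ± 150.3 and 553 ± 75.3 CPM (SD, n = 3 each) gave a log2 fold change of -0.17 (SE 0.22, 95% interval -0.69 to 0.34; adjusted p = 0.727 in edgeR). The antisense genes AC011611.3 and AC011611.4 overlap PHLDA1 with 2 to 15 and 2 to 9 reads per library.

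**Figure D2:**
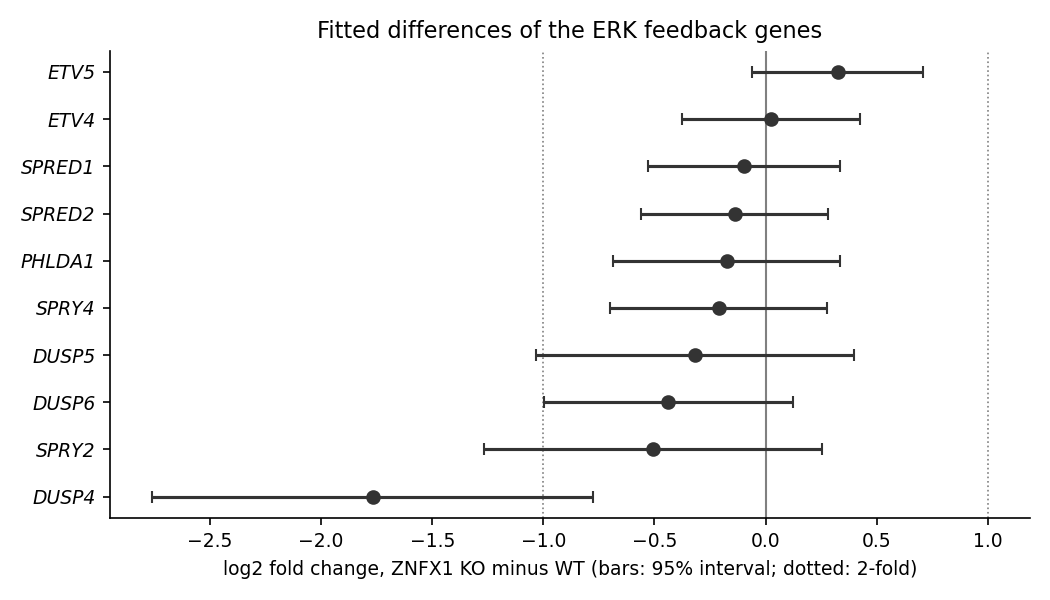
Fitted log2 fold changes (horizontal axis, ZNFX1 KO minus WT) of the 10 ERK feedback genes, with bars for the 95% interval of the edgeR fit and dotted lines at a 2-fold difference in either direction. The interval of DUSP4 (-2.76 to -0.78) is the one that does not reach 0, and 7 of the 10 intervals lie between the dotted lines.

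The intervals of 7 of the 10 genes excluded a 2-fold difference in either direction, and those of DUSP4, DUSP5 and SPRY2 did not. For 9 of the 10 genes the fold range among the 3 WT libraries was larger than the fold between the group means, with DUSP4 as the exception. The SD of log2-CPM was larger within WT than within KO for 7 genes. The shares of all genes tested were not computed for these counts, so they do not set the 10 genes apart.

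The genes were next described library by library, each relative to its own mean log2-CPM over the 6 libraries. The median over the 10 genes was 0.34, 0.26 and -0.19 in WT 1 to 3 and -0.06, -0.12 and -0.20 in KO 1 to 3. WT 1 and WT 2 were the high libraries, and WT 3 sat at the level of the KO libraries. WT 3 was the lowest WT library for 8 of the 10 genes, all but ETV4 and ETV5, and lay inside the KO range for 4. The share of all genes tested with WT 3 lowest in WT was not counted. The highest library was WT 1 for 5 genes and WT 2 for 3, and the lowest was WT 3 for 4 genes. This order is that of CPM. In TPM, WT 3 stayed the lowest of all libraries for DUSP5 (81.2 TPM). KO 1 was lower than WT 3 for SPRY2 (31.8 against 38.1 TPM) and SPRY4 (49.4 against 51.6 TPM). KO 3 was lower than WT 3 for PHLDA1 (55.9 against 61.2 TPM). For DUSP4 and SPRED1 the lowest WT library in TPM was WT 2.

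**Figure D3:**
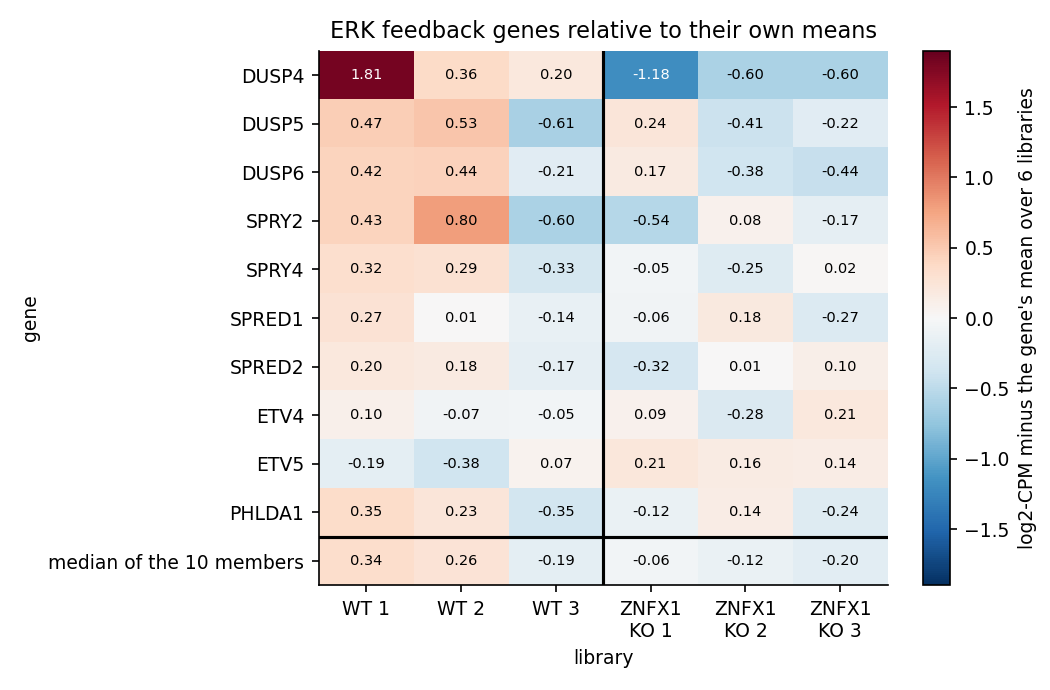
Log2-CPM of each ERK feedback gene (rows) minus the gene's own mean over the 6 libraries (columns), with the median of the 10 genes in the bottom row and the colour scale in log2 units. The medians of WT 1 and WT 2 are 0.34 and 0.26, and that of WT 3, at -0.19, is near those of the KO libraries.

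Left out 1 at a time, the libraries moved the median log2 fold change of the set between -0.36 and -0.08. Without WT 3 it was -0.36. In that fit 5 of the 10 genes had an unadjusted edgeR p under 0.05, beside 4308 of all genes. With all 6 libraries these counts were 1 of the 10 and 2141, so both rose. DUSP4 was the 1 gene of the set past the adjusted threshold without WT 3, where 1315 genes were called in all, against 103 with all 6 libraries. The number of genes tested without WT 3 is not given here, so no share is printed. Without WT 2, the library that stands apart in interferon-stimulated and cell division genes, the median was -0.12, and without WT 1 it was -0.08. The part of those 2 gene groups in the levels of the feedback genes was not tested.

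By a rule of likeness, the tested genes whose centred profile over the 6 libraries lay nearest to the median profile of the set were MAU2 (root mean square difference 0.035 in log2-CPM), MOSPD2 (0.0512) and CEP95 (0.0513), out of 10502 candidates. Their log2 fold changes were -0.24, -0.21 and -0.29.

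Per transcript length, the phosphatases DUSP5 and DUSP6 led the set, with 108 ± 24.7 and 86.7 ± 17.8 TPM (SD over all 6 libraries). PHLDA1 followed with 67.6 ± 11.3 TPM, SPRY4 with 55.6 ± 5.45 TPM and SPRY2 with 52.1 ± 17.4 TPM, so 5 genes had a mean of at least 50 TPM. ETV4 (18.4 ± 2.0 TPM), ETV5 (18.01 ± 3.93 TPM) and SPRED2 (11.9 ± 1.82 TPM) formed a middle range. SPRED1 (3.58 ± 0.597 TPM) and DUSP4 (1.79 ± 1.43 TPM) were the least abundant. Neighbours in this order were not all separated: SPRY4 was above SPRY2 in 4 of 6 libraries, and ETV4 above ETV5 in 3 of 6. PHLDA1 was above SPRY4, SPRY2 above ETV4 and SPRED2 above SPRED1 in 6 of 6 libraries. DUSP5 had a higher mean TPM than 96.6% of all genes tested, and DUSP4 than 31.3%.

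The rest of the pathway was read from gene lists ordered by role. Among close relatives of the set, 0 of 10 tested genes passed the test, with a median log2 fold change of -0.25. DUSP1, a nuclear phosphatase of several MAP kinases, stood at -0.20 (edgeR adjusted p = 0.668), and ETV1, the remaining PEA3 group factor, at -0.30 (adjusted p = 0.553). SPRY1, chosen after its values were seen, went against SPRY2 and SPRY4: it was at 14.8, 10.6 and 27.2 CPM in the WT libraries and 34.3, 45.6 and 42.8 CPM in KO. Every KO library of SPRY1 was above every WT library, though in TPM by little (WT 3 at 9.165 TPM and KO 1 at 9.179 TPM). Its log2 fold change was 1.22 (SE 0.33, adjusted p = 0.159 in edgeR). It passed the threshold in 3 of 18 alternatives, among them the fit without WT 3 (1.71, adjusted p = 0.0153).

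Other transcripts known to respond to ERK gave 0 of 12 tested genes past the test and a median log2 fold change of -0.46. In CPM the groups did not overlap for 6 of the 12 (50.0%), beside 20.2% of all genes tested, and these 6 went both ways. EGR1, LIF and UPP1 were lower in KO, and CCND1, EMP1 and PLAUR were higher, all but EMP1 named after their values were seen. The UPP1 gene row held 25.9% of the gene's reads, and its WT 1 and KO 1 lay close, at 4.65 and 4.32 CPM. In TPM the groups of UPP1, CCND1 and EMP1 overlapped. Those of FOS and EPHA2, also named after their values were seen, overlapped in CPM but were lower in every KO library in TPM. The lowest WT and highest KO values were 11.3 and 9.40 TPM for FOS and 43.6 and 40.7 TPM for EPHA2. EGR1, an immediate early transcription factor named after its values were seen, was at 301, 271 and 73.4 CPM in the WT libraries and 46.1, 66.8 and 56.3 CPM in KO. WT 3 was again the WT library nearest to KO. Its log2 fold change was -1.93 (SE 0.46; adjusted p = 0.120 in edgeR), and it passed the threshold in 3 of 18 alternatives, among them the fit without WT 3 (-2.32, adjusted p = 0.00323). EMP1, an epithelial membrane protein, was higher in every KO library in CPM (542, 474 and 822 CPM in WT against 843, 1084 and 922 CPM in KO). In TPM its WT 3 stood at 153.5 TPM, above KO 1 at 110.4 TPM and KO 3 at 141.0 TPM. The EMP1 log2 fold change was 0.63 (adjusted p = 0.284 in edgeR). It passed the threshold in 1 of 18 alternatives, the fit without WT 3 (adjusted p = 0.0320 in edgeR). IER3 stood at -0.77 (adjusted p = 0.353 in edgeR).

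Upstream of ERK, 0 of 8 tested growth factor ligands, 0 of 9 receptor tyrosine kinases and 0 of 22 adaptors, RAS proteins and cascade kinases passed the test, with medians of 0.05, 0.18 and -0.02. In CPM the groups did not overlap for 4 of the 8 ligands (50.0%), beside 20.2% of all genes tested. HBEGF and NRG1 (-1.215) were lower in KO, and FGF1 (1.146) and PDGFC (1.208) higher, all but HBEGF named after their values were seen. The gene rows of NRG1 and PDGFC held 42.0% and 26.4% of their reads, and in TPM the FGF1 groups overlapped. HBEGF, a ligand of the EGF receptor, was lower in every KO library (146, 164 and 89.9 CPM in WT against 62.9, 66.1 and 80.3 CPM in KO). Its log2 fold change was -0.93 (SE 0.24; adjusted p = 0.145 in edgeR), past the threshold in 3 of 18 alternatives. PDGFB stood at -0.33 (adjusted p = 0.471), the receptors AXL and FGFR1 at 0.18 (adjusted p = 0.806) and -0.16 (adjusted p = 0.668). The adaptor SHC1 was at 735 ± 20.6 CPM in the WT libraries and 871 ± 51.5 CPM in KO (SD, n = 3 each). Its groups did not overlap in CPM (log2 fold change 0.25, adjusted p = 0.486 in edgeR). In TPM they overlapped, with WT 3 at 169.3 TPM and KO 1 at 156.1 TPM. NRAS stood at -0.07 (adjusted p = 0.867 in edgeR).

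Of 9 other negative regulators of the pathway 1 fell and 0 rose, with a median log2 fold change of -0.18. The gene that fell was ERRFI1, also called MIG6, an inhibitor of the EGF receptor that ERK activity induces (ENSG00000116285.13, chr1:8004404-8026308, minus strand). ERRFI1 was at 613, 817 and 159 CPM in the WT libraries and 74.7, 67.3 and 60.2 CPM in KO. WT 3 was several times below the other WT libraries but above every KO library. The fitted log2 difference was -2.98 (SE 0.51; adjusted p = 0.0481 in edgeR). The call was kept in 8 of 18 alternatives, with adjusted p between 5.24e-09 and 0.261. Leaving out any library but WT 3 lost the call, with an adjusted p of 0.152 without WT 1, 0.0752 without WT 2, 0.109 without KO 1 and 0.261 without KO 2 or KO 3; without WT 3 it was 0.000696. Among the nuclear factors of the ERK response 0 of 10 tested genes passed the test (median 0.08). The 2 most abundant, ELK3 and ETS1, stood at 0.12 and 0.04. The list ran from -0.40 (ELK1) to 1.23 (ETS2, adjusted p = 0.236 in edgeR), both named after their values were seen.

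**Figure D4:**
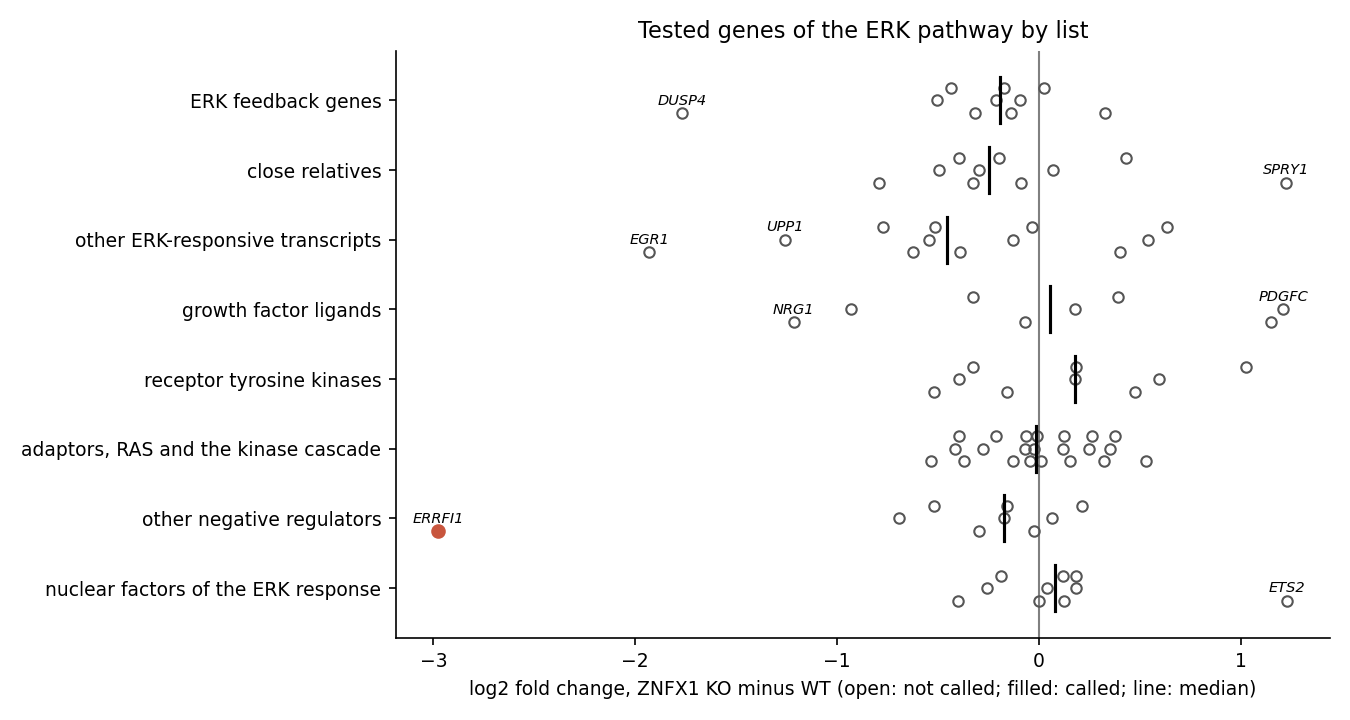
Log2 fold changes (horizontal axis, ZNFX1 KO minus WT) of all tested genes of the ERK feedback set and of 7 other lists of the pathway (rows), each circle 1 gene, filled where called by edgeR, with a vertical line at each list's median. ERRFI1 (-2.98) is the called gene, and the remaining labelled genes are those past 1.2 in size, named for their values.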

How the data were processed

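RNA of 3 WT and 3 ZNFX1 KO samples of TYK-nu was sequenced from stranded total RNA libraries, per the labels; groups and replicate numbers come from the sample titles. Per the labels, the authors ran Salmon, and the deposited files give its estimated counts, effective lengths and TPM values for each gene. FastQC, Trimmomatic and DESeq2 are also named in the submitters' processing notes, without versions. The genome build, annotation and strand setting were not given in the sources used here. Each file has 197169 rows; 134909 transcript rows, with 9.93% to 10.7% of the fragments, were left out of the main test. Columns of per-sample values not used: 0. Coordinates are those of GENCODE 29 (GRCh38), matched by gene ID.

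Counts were rounded to whole numbers, filtered by filterByExpr (14166 genes), scaled by TMM (factors 0.958 to 1.04) and tested in R 4.3.3 with edgeR 4.0.16 (glmQLFit, glmQLFTest, two-sided), genotype as the only term, Benjamini-Hochberg adjustment over all genes and a threshold of 0.05. The SE of a log2 fold change is its size over the root of F, and 95% intervals use the t quantile of the fit. CPM use TMM-scaled gene fragments, and log2-CPM use a prior count of 2. TPM are the deposited values without TMM scaling, so CPM and TPM can differ by library scale as well as by length. The fitting scripts were tested on simulated data with 200 changed genes. There 40% of 2-fold and 88% of 4-fold changes were called, and 8 of 136 calls were false. A gene that is not called is therefore not shown to be unchanged. No pair of libraries was a repeat deposit: the lowest chi-square between any pair was 30.4 per degree of freedom. Alternatives were DESeq2 1.42.0, limma 3.58.1, other scaling and filters, joined transcript rows, a replicate block and each library left out. Genes named outside the set are the called genes of each list (at most 3 per direction) or else its 2 most abundant, ZNFX1, cell type markers and the 3 likest profiles; others are marked as chosen after their values were seen. The genes, lists and tests were chosen with earlier results of these data known.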

Additional observations from a re-analysis of the deposited data

How the results depend on the processing

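Across 18 alternative settings the median log2 fold change of the 10 ERK feedback genes stayed negative, between -0.36 (without WT 3) and -0.08 (without WT 1). Against 103 genes called in all, 602 were called with no filter, 579 by the DESeq2 Wald test, 48 and 66 by limma on log2(TPM + 1) and log2(TPM + 0.1), 187 with transcript rows joined, 14 with the replicate block, and 2 (without KO 2) to 1315 (without WT 3) with a library left out. Of the feedback genes, 1 (DUSP4) was called with no filter, by the DESeq2 Wald test and without WT 3, and 0 to 1 with a library left out. ZNFX1 ranged from -1.03 to -0.53 with a library left out. Signs turned with library totals for ETV4 (-0.037) and ETS1 (-0.03). With a library left out, ETV4 ranged from -0.062 to 0.17, SPRED1 from -0.21 to 0.027, AXL from -0.059 to 0.59, NRAS from -0.16 to 0.037 and ETS1 from -0.073 to 0.20. Beyond fewer samples or genes tested, the cause of these moves was not tested. Deviations of same-numbered libraries correlated at 0.13, -0.04 and 0.01, and those of differently numbered libraries at -0.096 to 0.093. With 3 libraries a group these values cannot settle whether a number marks a shared culture or day, which the labels do not say. With the replicate block the median of the feedback genes was -0.17, and ERRFI1 had an edgeR adjusted p of 0.103. DUSP4 had the fewest reads of the set, 107 to 821 per library.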
